A study of Mus musculus with 18 samples.

Results

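Macrophages that lack progranulin were compared with wild-type macrophages in the M2 state, the state that interleukin-4 (IL-4) induces. The comparison takes 6 of the 18 RNA-seq libraries of the study, 3 from PGRN knockout M2 cells and 3 from WT M2 cells, and covers 21336 tested genes of the 43309 in the deposited table. Both groups were grown from bone marrow of C57BL/6 mice for 7 days in medium with 10% serum and 10 ng/ml M-CSF, and then received 20 ng/ml IL-4 for 18 h. The genotype is labelled PGRN knockout in the first group and wild-type in the second, and the labels name no other allele, no age and no sex. A further 9 libraries serve as side by side values: 3 of myeloid 14-3-3e knockout cells under IL-4 (gene Ywhae, called 14-3-3ε knockout M2 below, with the driver of the myeloid deletion not named), 3 of PGRN knockout cells and 3 of WT cells in the M1 state, which 100 ng/ml LPS plus 20 ng/ml interferon gamma induced over 18 h. The labels do not tell if replicates are different mice or different cultures, and p-values therefore measure the spread among libraries, which may be technical. That spread is pooled over the 6 groups of all 18 libraries, so it is not that of the M2 libraries alone.

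Progranulin is a secreted glycoprotein that also travels to lysosomes, by way of the sorting receptor sortilin or bound to prosaposin, and is cut there into granulin peptides. People with a single working copy of the gene can develop frontotemporal dementia, and loss of both copies causes a lysosomal storage disease of neurons. In macrophages progranulin has been described as a ligand of the tumour necrosis factor receptors, and the study's title names a complex of TNFR2 and 14-3-3ε. IL-4 acts through its receptor and STAT6, and induces genes such as Arg1, Retnla, Chil3 and Mrc1 that serve as marks of the M2 state. Lysosomal genes are controlled together by the transcription factors TFEB, TFE3 and MITF, which bind E-box motifs in their promoters.

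The 3 PGRN knockout M2 libraries hold 30978316, 58782676 and 13654295 reads, and the 3 WT M2 libraries hold 14190232, 30584708 and 21819936. WT M2 replicate 3 stands apart: ribosomal RNA-like genes took 12.2% of its reads, against at most 0.075% in the other 5 libraries. Its Pearson correlation with the other WT M2 libraries, across genes, was 0.924 to 0.938. WT M2 replicates 1 and 2 correlated at 0.972, and the PGRN knockout M2 libraries with each other at 0.986 to 0.989. Macrophage identity genes and stromal genes also separated the groups. The 22 macrophage identity genes summed to 385242 to 447002 normalized counts in PGRN knockout M2 libraries and to 194517 to 235220 in WT M2 libraries. Lyz2 holds much of that gap, and without it the other 21 summed to 176616 to 209400 in PGRN knockout M2 libraries and 115898 to 136902 in WT M2 libraries. The 16 stromal markers summed to 309829 to 378834 normalized counts in PGRN knockout M2 libraries and to 478887 to 608039 in WT M2 libraries. Neither sum overlaps between the groups, the part that this plays in the results below was not tested, and in bulk RNA fewer cells of a type and less RNA per cell cannot be told apart.

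The targeted gene followed the labels. Grn (ENSMUSG00000034708), which encodes progranulin and lies on chromosome 11 at positions 102430507 to 102436809 in the RefSeq annotation of GRCm38.p6, had 24.4, 23.9 and 32.2 in PGRN knockout libraries, against 30086, 29365 and 34556 in WT libraries. These are normalized counts, that is, reads divided by a size factor per library, and the reads behind the PGRN knockout M2 values are 36, 71 and 21. The difference is log2 fold change -10.14 ± 0.22, adjusted p = 2.16e-13, where log2 fold changes are of the normalized count plus 1, knockout over WT, with the standard error of the model and n = 3 libraries per group. Below, values per library are normalized counts in the order of the replicates, and a value alone in parentheses after a gene is its log2 fold change. Ywhae, the gene of 14-3-3ε, had 7949, 7432 and 7792 in PGRN knockout libraries and 9015, 8203 and 8999 in WT libraries, log2 fold change -0.18 ± 0.08, adjusted p = 0.141, and did not pass the threshold.

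Of the 21336 genes tested, 4141 (19.4%) differed between PGRN knockout M2 and WT M2 cells at an adjusted p under 0.05 (limma, Benjamini-Hochberg over all genes tested). Of these, 2370 (11.1% of all genes tested) were higher and 1771 (8.3%) lower in the knockout. These shares are the ones to set beside the counts of each gene list below. Most changes were small: 458 genes (2.15%) rose and 445 (2.09%) fell by more than 2-fold. Scaling by library totals in place of the deposited size factors gave 1736 higher and 1940 lower genes, so the share of higher genes among those called was 57.2% in the deposited scaling and 47.2% under library totals. Without PGRN knockout M2 replicate 3 the count fell to 2752 genes, and without WT M2 replicate 3, the library rich in ribosomal RNA-like reads, it was 3475. In 8349 genes (39.1%) the 3 knockout values did not overlap the 3 WT values, and 4089 (19.2%) both passed the threshold and did not overlap.

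**Figure D1:**
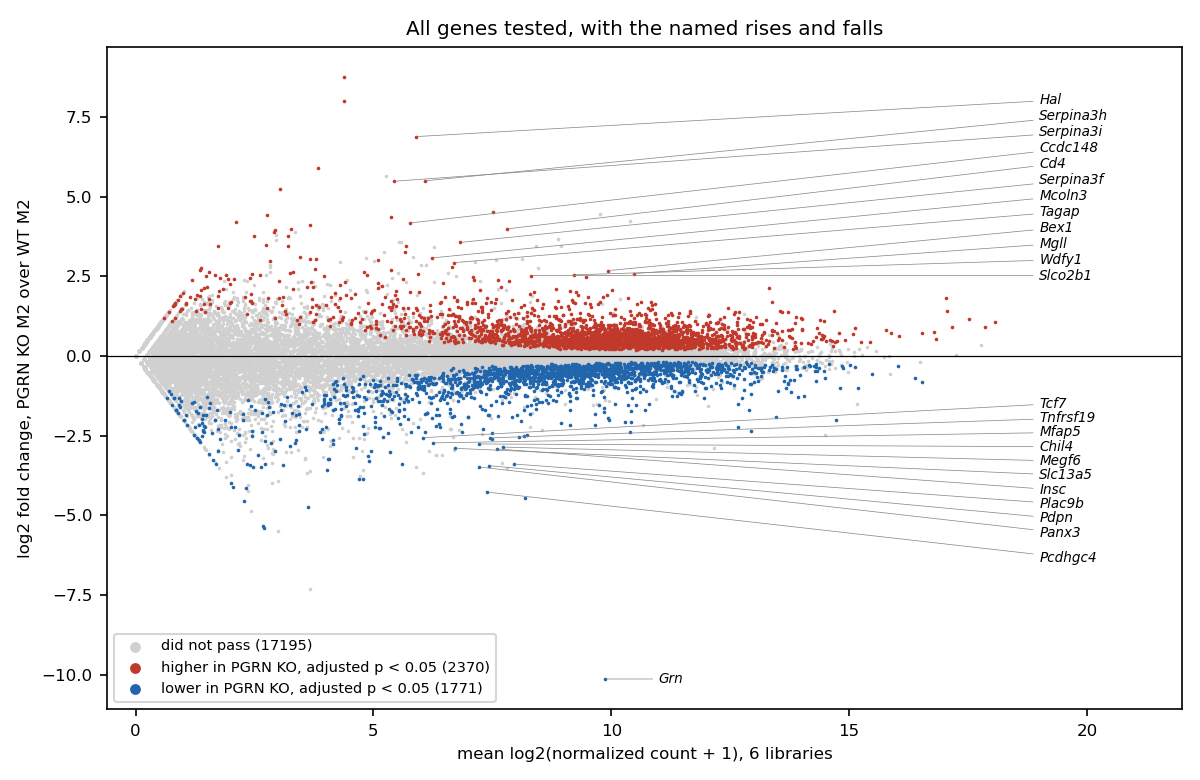
Log2 fold change of PGRN knockout M2 over WT M2 (vertical) against the mean log2 of the normalized count plus 1 over the 6 libraries (horizontal), one point per gene tested. The 2370 red genes were higher and the 1771 blue genes lower in the knockout, the 17195 grey genes did not pass, and Grn lies at -10.14, below every other gene.

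Several genes whose products handle progranulin were higher in its absence. Psap encodes prosaposin, which carries progranulin to lysosomes and is itself cut into saposins, the helper proteins of sphingolipid breakdown. Its normalized counts were 415807, 372513 and 415918 in PGRN knockout libraries, against 202662, 163712 and 206442 in WT libraries. Every knockout library was above every WT library, and the difference was log2 fold change 1.08 ± 0.10, adjusted p = 2.03e-06. Sort1 encodes sortilin, which takes progranulin up from the cell surface, and had 3160.3, 2603 and 3052 in PGRN knockout libraries and 1263, 1327 and 1355 in WT libraries. It rose as well, with log2 fold change 1.15 ± 0.11, adjusted p = 2.13e-06. Tmem106b, a lysosomal membrane protein whose variants modify progranulin-linked dementia, rose by a smaller step, log2 fold change 0.55 ± 0.09, adjusted p = 0.000361. Of the 18 tested genes in the list of progranulin partners, 8 rose (44.4%, against 11.1% of all genes tested) and 2 fell, Grn itself and the matrix protease Mmp14 (-0.57 on the log2 scale). The other 8 did not pass, and the list's median log2 fold change was 0.03. Without PGRN knockout M2 replicate 1 or replicate 3, 5 of these genes rose.

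The TNF receptors and their ligand did not move together. Tnfrsf1b encodes TNFR2, the receptor named in the study's title, and had 7516, 6279 and 7708 in PGRN knockout libraries, against 4843, 4626 and 5472 in WT libraries, log2 fold change 0.52 ± 0.12, adjusted p = 0.00539. Tnfrsf1a, which encodes TNFR1, had 3259, 3127 and 3303 in PGRN knockout libraries and 3538, 3639 and 3561 in WT libraries, log2 fold change -0.15 ± 0.06, adjusted p = 0.115, and did not pass. Tnf itself was low in both groups, with 101, 113 and 82.8 in PGRN knockout libraries, against 73.2, 95.6 and 121 in WT libraries, and did not pass (adjusted p = 0.865). Within the list of 22 TNF receptor signalling genes, 5 rose and none fell in the fit or in the fits that leave out 1 of the 6 libraries each. Besides Tnfrsf1b these were Cflar, an inhibitor of caspase-8 (0.69), Birc3, a ubiquitin ligase of the receptor complex (0.54), Ripk1, its kinase (0.40), and Adam17, the protease that sheds TNF and its receptors (0.37). The other 17 did not pass, and the list's median log2 fold change was 0.07, against 0 over all genes tested. Its share of rises was 22.7%, against 11.1% of all genes tested.

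Lysosomal genes rose broadly and by less than 2-fold in most cases. Over 4 lists that hold lysosomal proteases, hydrolases of glycans, lipids and nucleic acids, membrane and transport proteins, and subunits of the proton pump, 104 genes were tested. Of these, 75 (72.1%) rose and 4 (3.85%) fell, against 11.1% and 8.3% of all genes tested, and their median log2 fold change was 0.51. Without WT M2 replicate 3, 72 rose and 2 fell, and over all 6 fits that leave out a library the count of rises was 66 to 72. The lists were chosen with results of these data known, so these counts describe the group and are not independent evidence of its direction.

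Several of the lysosomal genes that rose carry an E-box in the promoter. The window searched runs from 250 bases before to 50 bases after the transcription start in the RefSeq table of GRCm38.p6, 300 bases in all, and the motif is CACGTG, which reads the same on both strands. It occurred in 20 of the 83 lysosomal genes with a promoter in that table (24.1%), in 1255 of 13343 promoters of genes tested (9.41%) and in 7.24% of all 27025 promoters. Among lysosomal genes that rose, 13 of 61 promoters held it (21.3%), and among those that did not rise 7 of 22 did (31.8%). The longer motif TCACGTG, counted on both strands and always part of a CACGTG match, occurred in 20.5% of the lysosomal promoters and 5.52% of those of genes tested. Shown here are the promoters of Ctsd, Gla, Clcn7 and Slc36a1, the genes with the smallest p among those that rose and hold at least 2 matches, each written 5′ to 3′ on the gene's strand with CACGTG in capitals. A match is a string of letters and not a measured binding site. Ctsd lies on the minus strand at chr7:142387778-142388077, Gla on the minus strand at chrX:134600956-134601255, Clcn7 on the plus strand at chr17:25133141-25133440 and Slc36a1 on the plus strand at chr11:55204090-55204389.
Ctsd: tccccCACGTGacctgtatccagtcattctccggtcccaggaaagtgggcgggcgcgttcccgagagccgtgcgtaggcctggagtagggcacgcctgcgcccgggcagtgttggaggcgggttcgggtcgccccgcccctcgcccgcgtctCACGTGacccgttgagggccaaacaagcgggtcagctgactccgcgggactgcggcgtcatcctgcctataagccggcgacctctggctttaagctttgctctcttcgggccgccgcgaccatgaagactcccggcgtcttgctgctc
Gla: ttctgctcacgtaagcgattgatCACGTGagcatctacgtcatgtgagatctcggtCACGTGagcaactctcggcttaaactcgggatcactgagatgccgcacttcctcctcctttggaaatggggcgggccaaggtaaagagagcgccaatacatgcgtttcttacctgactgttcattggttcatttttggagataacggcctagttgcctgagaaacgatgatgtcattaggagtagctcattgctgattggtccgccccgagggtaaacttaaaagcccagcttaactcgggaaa
Clcn7: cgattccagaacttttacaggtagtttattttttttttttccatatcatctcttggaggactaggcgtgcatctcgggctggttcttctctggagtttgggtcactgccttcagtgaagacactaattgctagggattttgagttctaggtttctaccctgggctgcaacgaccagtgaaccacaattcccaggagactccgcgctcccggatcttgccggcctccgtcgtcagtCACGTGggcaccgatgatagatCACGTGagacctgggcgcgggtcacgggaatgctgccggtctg
Slc36a1: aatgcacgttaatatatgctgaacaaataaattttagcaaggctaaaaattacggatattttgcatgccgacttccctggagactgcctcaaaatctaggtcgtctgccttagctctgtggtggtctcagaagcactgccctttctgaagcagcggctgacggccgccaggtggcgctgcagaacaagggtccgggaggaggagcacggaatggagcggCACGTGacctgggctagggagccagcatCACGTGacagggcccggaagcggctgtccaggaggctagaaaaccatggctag

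Proteases of the lysosome rose in 13 of 20 genes and fell in 3. Ctsd encodes cathepsin D, an aspartic protease, and had 311627, 232850 and 310551 in PGRN knockout libraries and 126241, 107984 and 144434 in WT libraries, log2 fold change 1.17 ± 0.13, adjusted p = 1.02e-05. Ctsb, a cysteine protease, had 342551, 297033 and 341792 in PGRN knockout libraries, against 165598, 164925 and 188886 in WT libraries, log2 fold change 0.92 ± 0.10, adjusted p = 9.21e-06. The groups did not overlap for either gene, and the same held for Lgmn, the asparaginyl endopeptidase legumain (log2 fold change 0.86 ± 0.08, adjusted p = 3.2e-06), and Ctsh (log2 fold change 0.75 ± 0.08, adjusted p = 8.75e-06). Tpp1, Ctss and Ctsl also rose, by 0.90, 0.82 and 0.71. The falls were Ctsk, the collagen-degrading cathepsin of osteoclasts (-0.71), Ctsf (-0.66) and Cst7, an inhibitor of cathepsins (-0.64). Ctsl missed the threshold without PGRN knockout M2 replicate 1 or 3 or WT M2 replicate 1, and Ctsk missed it in each fit that left out a library other than PGRN knockout M2 replicate 2.

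Among 41 hydrolases of glycans, lipids and nucleic acids, 28 rose and 1 fell. Pld3, an exonuclease of single-stranded nucleic acid, had 22957, 19279.6 and 23036 in PGRN knockout libraries and 8463, 7516 and 8887 in WT libraries, log2 fold change 1.39 ± 0.09, adjusted p = 3.75e-08. Creg1, a lysosomal glycoprotein, had 13691, 11369 and 13955 in PGRN knockout libraries, against 5559, 5023 and 6120.2 in WT libraries, log2 fold change 1.22 ± 0.12, adjusted p = 2.47e-06. In both genes the lowest knockout library was far above the highest WT library. Galns, a sulphatase of keratan sulphate (log2 fold change 1.05 ± 0.08, adjusted p = 6.01e-07), and Acp2, lysosomal acid phosphatase (log2 fold change 0.86 ± 0.08, adjusted p = 1.34e-06), followed, and Lipa, the acid lipase that frees cholesterol from its esters, rose by 1.09. Smpd1 (-0.03), Gaa (0.11) and Ppt1 (0.10) did not pass. Naaa, an acid amidase, was the gene that fell (-0.37, adjusted p = 0.031), and it passed in just 1 of the 6 fits that leave out a library, the one without WT M2 replicate 2.

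Membrane proteins were the lysosomal list with the largest share of rises, 23 of 26, with no falls. Gpnmb, a transmembrane glycoprotein of lysosome-stressed and lipid-loaded macrophages, had 276490, 202970 and 282260 in PGRN knockout libraries and 62841, 65114 and 91147 in WT libraries. That is 3.49-fold higher in the knockout (log2 fold change 1.80 ± 0.19, adjusted p = 1.07e-05), with no overlap between the groups. Transporters for small molecules out of the lysosome were among the clearest changes: Slc29a3, for nucleosides, had log2 fold change 1.13 ± 0.09, adjusted p = 8.77e-07; Slc15a3, for histidine and peptides, had log2 fold change 1.13 ± 0.11, adjusted p = 4.98e-06; and Slc38a9, the arginine sensor that signals to mTORC1, had log2 fold change 0.92 ± 0.09, adjusted p = 4.31e-06. The structural proteins Lamp1 and Lamp2 rose by 0.44 and 0.70, and the cholesterol exporters Npc1 and Npc2 by 0.92 and 0.45. Clcn7 and Slc36a1, whose promoters are shown above, rose by 0.72 and 0.76, as did the calcium channels Mcoln1 (0.44) and Tpcn2 (0.59). Mcoln2 (0.25), Tmem192 and Laptm4a did not pass.

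The V-ATPase, the proton pump that acidifies the lysosome, rose in 11 of 17 genes with no falls. Atp6v0d2, a subunit found mainly in macrophages and osteoclasts, had 19739.5, 18237 and 20189.9 in PGRN knockout libraries, against 7378, 6410.4 and 8389 in WT libraries, log2 fold change 1.40 ± 0.11, adjusted p = 6.46e-07. Tcirg1, the a3 subunit, had 11147, 9932 and 11185 in PGRN knockout libraries and 5144, 5456 and 6525 in WT libraries, log2 fold change 0.92 ± 0.11, adjusted p = 3.28e-05. Knockout and WT libraries did not overlap for either. Atp6v0a1 and Atp6v1b2 rose by 0.87 and 0.71, while the widely expressed d1 subunit Atp6v0d1 did not pass (0.15).

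**Figure D2:**
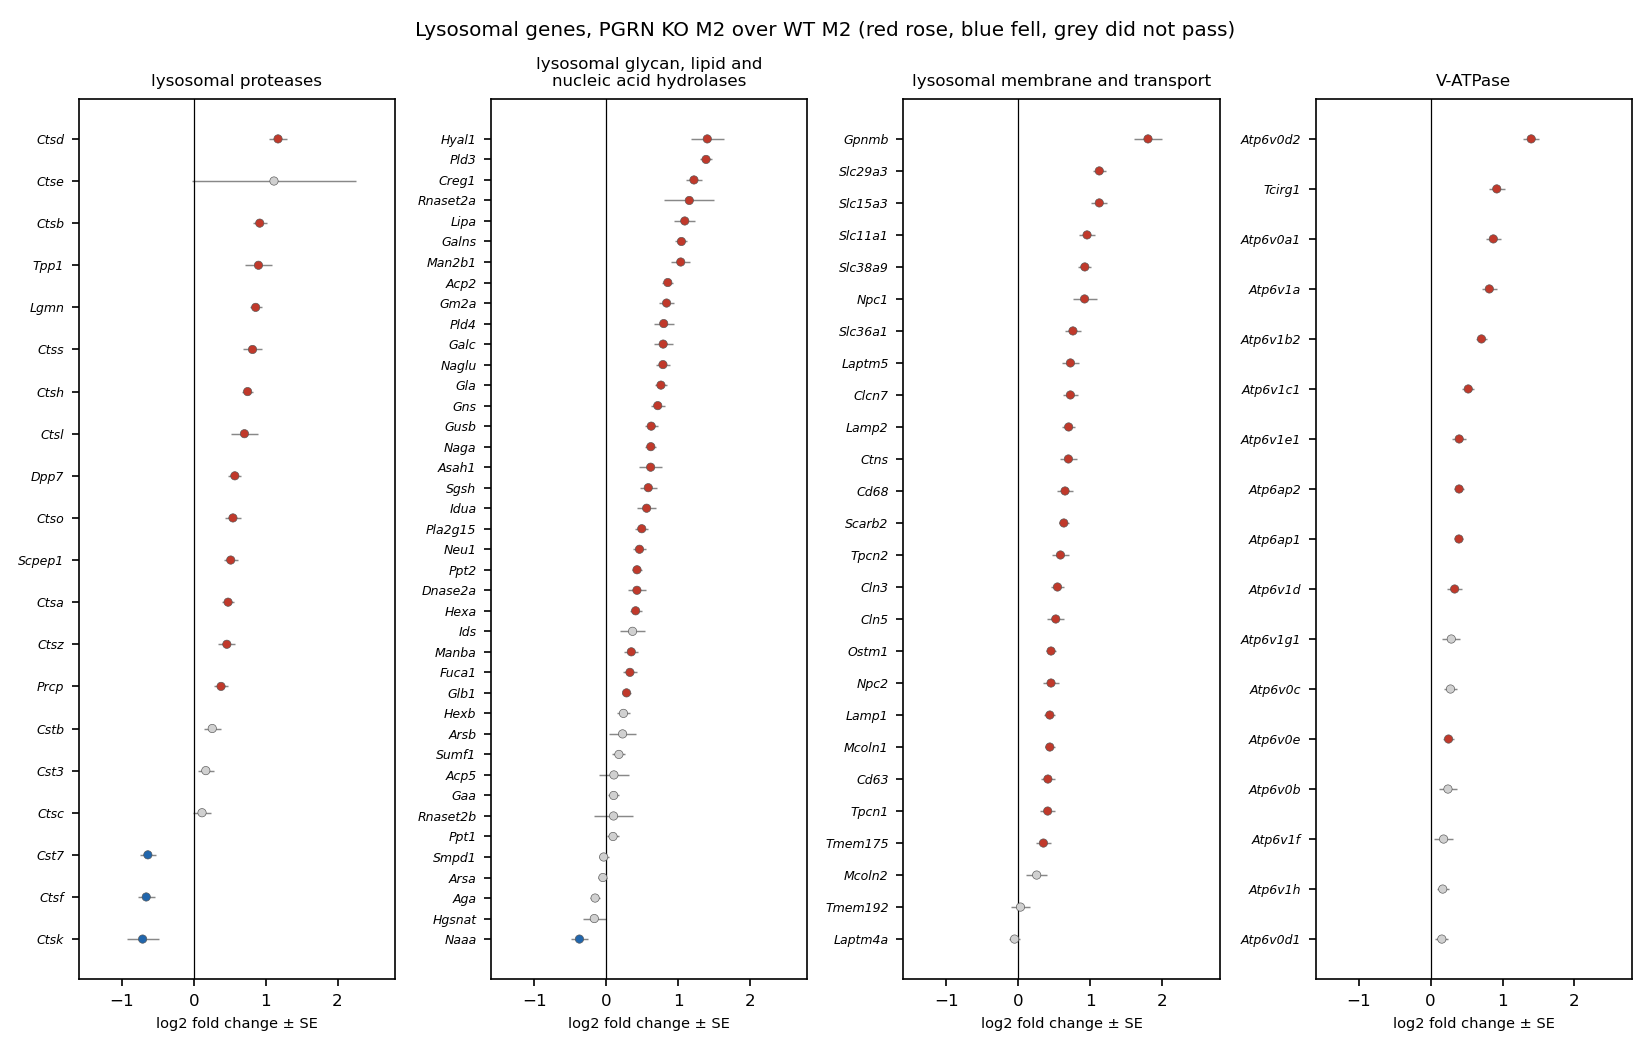
Log2 fold change of PGRN knockout M2 over WT M2 with its standard error for tested genes of the 4 lysosomal lists, leaving out 1 that is counted but not reported here, red where the gene rose, blue where it fell and grey where it did not pass. Points to the right of 0 dominate in each panel, and the falls are Cst7, Ctsf, Ctsk and Naaa.

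The nutrient-sensing machinery on the lysosomal surface rose in part. Rragd, a Rag GTPase that TFEB-family factors induce, had 661, 594 and 654 in PGRN knockout libraries, against 161, 167 and 250.5 in WT libraries, log2 fold change 1.75 ± 0.18, adjusted p = 6.75e-06. Fnip2 and Flcn, which encode the folliculin complex that acts on Rag GTPases, rose by 1.06 and 0.52, and Rragc by 0.43. Tsc1, an inhibitor of mTORC1 signalling, had log2 fold change 0.98 ± 0.08, adjusted p = 5.9e-07. Of the factors themselves, Mitf (0.52, adjusted p = 0.00138) and Tfeb (0.45, adjusted p = 0.0378) rose, Tfe3 did not pass (0.19), and Tfec fell (-0.45, adjusted p = 0.0213). Over this list of 20 genes, 10 rose and 2 fell, Tfec and Rheb, and leaving out a library gave 0 to 2 falls. Without WT M2 replicate 3 or PGRN knockout M2 replicate 2 neither fell, and without PGRN knockout M2 replicate 1 or 3 or WT M2 replicate 1 a single one did. Tfeb missed the threshold without PGRN knockout M2 replicate 1 or 3 or WT M2 replicate 2.

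Autophagy genes rose in 14 of 27 and fell in 1. The largest rise was Gabarapl1, an ATG8 protein of the autophagosome membrane, with 3502, 2887 and 3398 in PGRN knockout libraries and 1864, 1729.6 and 1703 in WT libraries, log2 fold change 0.88 ± 0.09, adjusted p = 5.88e-06. Atg12 (0.55), Plekhm1, a tether between autophagosomes and lysosomes (0.60), and Atg2a (0.55) rose too, and Map1lc3a fell (-0.63). Map1lc3b, which encodes the commonly used LC3B, did not pass (0.14). Without PGRN knockout M2 replicate 1, and also under scaling by library totals, 9 of the 27 rose.

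Genes of lipid-laden macrophages rose in 15 of 19 and fell in 3. Beside Gpnmb, Ms4a7, a tetraspan-like membrane protein, had 4191, 4456 and 4518 in PGRN knockout libraries, against 1736, 1587 and 1877 in WT libraries, log2 fold change 1.34 ± 0.08, adjusted p = 2.14e-08. Clec7a, the beta-glucan receptor dectin-1, had 10020.2, 11119 and 10638 in PGRN knockout libraries and 3969, 3776 and 4419.6 in WT libraries, log2 fold change 1.39 ± 0.16, adjusted p = 1.34e-05. Fabp5, a fatty acid carrier, had 20472, 18149.9 and 20731 in PGRN knockout libraries, against 8509.7, 7854 and 6678 in WT libraries, log2 fold change 1.37 ± 0.17, adjusted p = 3.23e-05. For none of these did the groups overlap. Apoe, the lipoprotein that carries cholesterol out of macrophages, was higher in every knockout library (190342, 204437 and 206106 in PGRN knockout libraries and 116120, 98400 and 108455 in WT libraries) and passed (log2 fold change 0.90 ± 0.25, adjusted p = 0.0191), but not when PGRN knockout M2 replicate 2 or 3 or WT M2 replicate 2 was left out (adjusted p up to 0.061). Trem2, the lipid-sensing receptor often used to name such cells, had 13366, 11292 and 13291 in PGRN knockout libraries, against 10815, 9812 and 12204 in WT libraries and did not pass (log2 fold change 0.21 ± 0.14, adjusted p = 0.357). The falls were Ch25h, the cholesterol 25-hydroxylase (-1.56), Cst7 (-0.64) and Csf1 (-0.35), of which Csf1 passed in just 1 of the 6 fits that leave out a library, the one without WT M2 replicate 1.

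Cholesterol genes rose on the export side and on the synthesis side in the same libraries. Liver X receptors (LXR) respond to oxysterols and drive cholesterol export, and of 20 LXR and lipid handling genes 16 rose and none fell, with a median log2 fold change of 0.82. Abcg1, a cholesterol exporter, had 6993, 6452 and 7144 in PGRN knockout libraries and 2968, 3266 and 3841 in WT libraries, log2 fold change 1.04 ± 0.09, adjusted p = 1.23e-06. Nr1h3, which encodes LXR alpha, had 1149, 1253 and 1047 in PGRN knockout libraries, against 559, 419.7 and 451 in WT libraries, log2 fold change 1.28 ± 0.14, adjusted p = 9.89e-06. All knockout libraries were above all WT libraries for both genes, and the exporter Abca1 rose by 1.45. Mgll, monoacylglycerol lipase, belongs to this list and was among the 12 largest rises, with 3642, 3242 and 3649 in PGRN knockout libraries and 663, 541 and 551 in WT libraries, log2 fold change 2.59 ± 0.17, adjusted p = 8.11e-08. Pnpla2, the lipase of lipid droplets, rose by 0.83 and the droplet coat protein Plin2 by 0.59.

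Sterol synthesis is controlled by SREBP2, which is active when membrane cholesterol is low. Of 24 genes of cholesterol synthesis and uptake, 16 rose and 1, Ebp, fell (-0.42). Dhcr7, the last enzyme of the pathway, had 2242, 1917 and 2201 in PGRN knockout libraries, against 1007, 999 and 995 in WT libraries, log2 fold change 1.08 ± 0.17, adjusted p = 0.000316. Insig1, the feedback protein of SREBP2, had 3234, 3132 and 3179 in PGRN knockout libraries and 1865, 1563 and 1563 in WT libraries, log2 fold change 0.94 ± 0.15, adjusted p = 0.000411. Sc5d (1.01) and Nsdhl (0.87) were also higher, whereas Hmgcs1 (-0.17) and Fdps (0.35) did not pass. Without WT M2 replicate 3, 13 of these genes rose and 1 fell, and Ebp missed the threshold without PGRN knockout M2 replicate 1 or WT M2 replicate 1.

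Genes that IL-4 induces split in both directions. Of 38 tested genes in the list of IL-4 and M2 genes, 9 rose (23.7%, against 11.1% of all genes tested) and 9 fell (23.7%, against 8.3%), and the median log2 fold change was -0.02. Retnla, the resistin-like protein RELMα, had 12189.8, 16430 and 12008 in PGRN knockout libraries, against 60803, 46921 and 55821 in WT libraries, and Arg1, arginase 1, had 10640.2, 10322 and 9184 in PGRN knockout libraries and 20598, 25006 and 28534 in WT libraries. Both were lower in every knockout library and passed, Retnla with log2 fold change -2.02 ± 0.56, adjusted p = 0.0211 and Arg1 with log2 fold change -1.29 ± 0.41, adjusted p = 0.041. Arg1 missed the threshold whichever of the 6 libraries was left out (adjusted p = 0.0675 to 0.116), and Retnla missed it without PGRN knockout M2 replicate 1 or 3 or WT M2 replicate 1 or 3 (up to 0.069). Chil4, a chitinase-like protein, fell the most in the list, with 63.2, 51.6 and 53.6 in PGRN knockout libraries, against 250.1, 452 and 506 in WT libraries, log2 fold change -2.76 ± 0.30, adjusted p = 1.09e-05. Its relative Chil3 had 50491, 41187 and 49775 in PGRN knockout libraries and 39454, 35871 and 41852 in WT libraries and did not pass (log2 fold change 0.27 ± 0.32, adjusted p = 0.641).

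The mannose receptor Mrc1 had 31481, 29234 and 29076 in PGRN knockout libraries, against 21064, 32266 and 31136 in WT libraries, with overlapping groups (adjusted p = 0.837). Il4ra, the IL-4 receptor chain, also overlapped, with 1859, 1739.8 and 1858 in PGRN knockout libraries and 1589.9, 1812 and 2048 in WT libraries (adjusted p = 0.983). Both genes changed sign under at least 1 alternative. The genes of the list that rose included Atp6v0d2, Clec7a, Itgax, the integrin CD11c (log2 fold change 1.18 ± 0.15, adjusted p = 3.88e-05), the transglutaminase Tgm2 (0.87), the transcription factors Pparg (0.75) and Egr2 (0.63), and Amz1 (1.29). The falls besides Chil4, Retnla and Arg1 were Ccl24 (-1.52), Ccl7 (-1.31), Clec10a (-1.09), Socs1 (-0.89), Klf4 (-0.87) and Myc (-0.35). Without PGRN knockout M2 replicate 1, PGRN knockout M2 replicate 3 or WT M2 replicate 3, and with reads thinned to equal depth, 5 of the list fell. Clec10a missed the threshold without PGRN knockout M2 replicate 1 or 3 or WT M2 replicate 1 or 3, and Myc in each fit that left out a library other than WT M2 replicate 1.

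**Figure D3:**
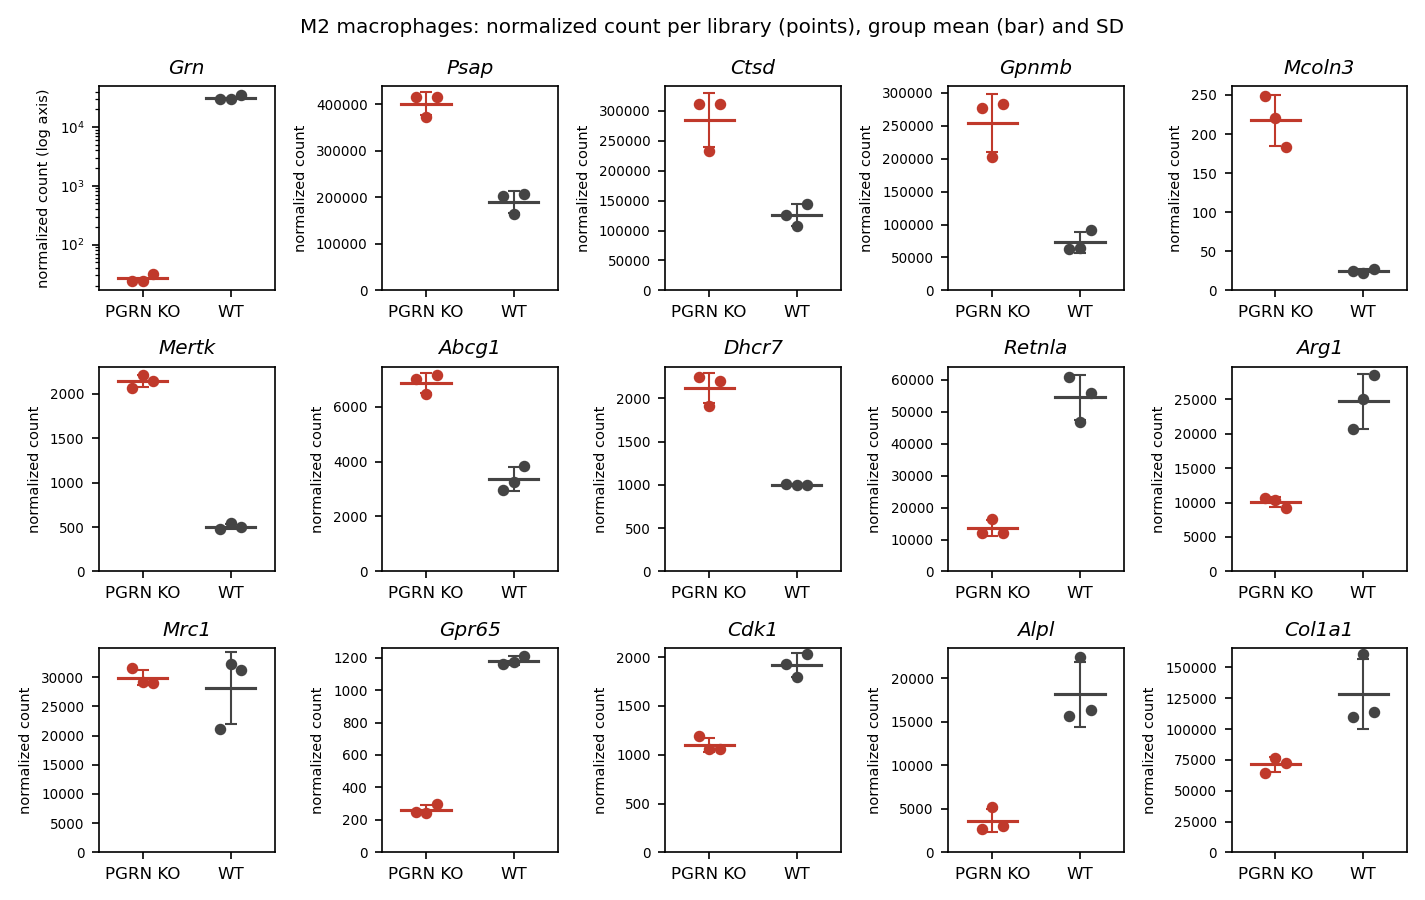
Normalized counts in each PGRN knockout M2 library (red points, left) and each WT M2 library (grey points, right) for 15 genes, with the group mean as a bar and the standard deviation as whiskers (Grn on a log axis, without whiskers). The groups are separate in every panel but Mrc1.

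Most inflammatory genes of the M1 state did not pass. Of 32 M1 and NF-kB genes, 4 rose (12.5%, against 11.1% of all genes) and 5 fell (15.6%, against 8.3%), and 23 did not pass. Il1a, the alarmin interleukin-1 alpha, rose at a low level, with 93.0, 144 and 82.8 in PGRN knockout libraries, against 27.9, 13.3 and 9.28 in WT libraries, log2 fold change 2.69 ± 0.38, adjusted p = 0.00016. The falls included Cd40, the co-stimulatory receptor, with 117, 161 and 133 in PGRN knockout libraries and 302, 331 and 351 in WT libraries, log2 fold change -1.26 ± 0.17, adjusted p = 6.16e-05, and Saa3, an acute-phase protein, with 198, 185 and 267 in PGRN knockout libraries, against 572, 472 and 749 in WT libraries, log2 fold change -1.45 ± 0.20, adjusted p = 0.000122. Il1b (-0.18), Il6 (-0.26) and Nos2 (1.11, adjusted p = 0.116) did not pass. Tnfaip3, the NF-kB inhibitor A20, rose by 0.64 and Icam1 by 0.63.

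Among 27 chemokines and chemokine receptors, 6 fell (22.2%, against 8.3% of all genes tested) and 3 rose (11.1%, the share of all genes tested). Pf4, platelet factor 4, had 452, 572 and 457 in PGRN knockout libraries and 1970.4, 1903 and 2132 in WT libraries, log2 fold change -2.02 ± 0.15, adjusted p = 3.41e-07. Ccl2, Ccl7 and Ccl12, ligands that recruit monocytes, fell, with log2 fold changes of -1.19, -1.31 and -1.88. Their 3 knockout libraries lay below all 3 WT libraries in each case: Ccl12, for example, had 96.4, 133 and 82.8 in PGRN knockout libraries, against 321, 421 and 397 in WT libraries. The other falls were Ccl8 (-1.53) and the eosinophil attractant Ccl24 (-1.52), which missed the threshold with reads thinned to equal depth, and the rises were Ccl6 (1.38), Cxcr4 (0.87) and Ccl3 (0.41). Ccl8 missed the threshold without PGRN knockout M2 replicate 1 or 3 or WT M2 replicate 2, and Ccl3 in each fit that left out a library other than WT M2 replicate 3.

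Type I interferon genes rose in 15 of 32 and fell in 2, with a median log2 fold change of 0.52. Oas3, a sensor enzyme of double-stranded RNA, had 363, 423 and 383 in PGRN knockout libraries and 164, 139.7 and 165 in WT libraries, log2 fold change 1.32 ± 0.12, adjusted p = 2.03e-06. Ifi204, a DNA-binding protein, had 1635, 1887 and 1876 in PGRN knockout libraries, against 954, 924 and 1062 in WT libraries, log2 fold change 0.88 ± 0.09, adjusted p = 4.32e-06. The groups did not overlap for either, and Trim30a (0.82), Parp14 (0.77), Rsad2 (1.29) and the transcription factor Stat2 (0.68) rose with them. Other well-known members did not pass, among them Ifit1 (0.36), Isg15 (-0.34) and Irf7 (0.22), and Isg20 (-0.68) and Usp18 (-0.40) fell. The Usp18 call was lost without PGRN knockout M2 replicate 1 or 3 or WT M2 replicate 1 or 3. Of the same 32 genes, 16 were higher (against 3.32% of all genes tested) and none lower (against 3.37%) in 14-3-3ε knockout M2 cells than in the WT M2 libraries, which both comparisons share. Under library totals that comparison had 18 of them higher, against 5.63% of all genes tested, and none lower, against 1.49%.

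Complement components fell and several receptors rose. The subunits of C1q, which starts the classical pathway, fell: C1qb had 6480.2, 16787 and 12145 in PGRN knockout libraries and 29706, 24608 and 25393 in WT libraries, log2 fold change -1.27 ± 0.28, adjusted p = 0.00555, and C1qa (-0.89) and C1qc (-0.74) fell with it. Knockout replicate 1 was the lowest of the C1qb values and knockout replicate 2 the highest in its group, and C1qb missed the threshold when only the groups compared were fitted. Serping1, the C1 inhibitor, fell (log2 fold change -1.07 ± 0.17, adjusted p = 0.000306), as did C2 (-0.95) and Cfb (-1.75). The rises were Cd93 (log2 fold change 0.89 ± 0.14, adjusted p = 0.000298), C3ar1 (log2 fold change 0.65 ± 0.12, adjusted p = 0.00123), and the alpha chains Itgam (1.18) and Itgax (1.18) of integrin complement receptors, while the C5a receptor C5ar1 did not pass (0.12). In all, 4 of 16 rose (25%, against 11.1% of all genes tested) and 6 fell (37.5%, against 8.3%). C2 missed the threshold without PGRN knockout M2 replicate 3. Antigen presentation by MHC class II showed 2 rises in 11 genes (18.2%, against 11.1% of all genes tested), and 0 to 1 when a library was left out. The 2 were Ciita, the master regulator of MHC class II (log2 fold change 1.34 ± 0.45, adjusted p = 0.047), and Ifi30 (log2 fold change 0.34 ± 0.10, adjusted p = 0.0242). Ciita missed the threshold whichever library was left out (adjusted p up to 0.142), Ifi30 missed it without PGRN knockout M2 replicate 1 or 3 or WT M2 replicate 2 (up to 0.0987), and the MHC chains H2-Aa (0.91) and H2-Ab1 (0.53) did not pass.

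Genes for the uptake of dying cells moved in both directions, with more rises than falls. Mertk, a receptor tyrosine kinase for uptake of apoptotic cells, had 2072, 2214 and 2152 in PGRN knockout libraries, against 478, 541 and 499 in WT libraries. The difference was 4.24-fold (log2 fold change 2.08 ± 0.18, adjusted p = 1.73e-06) with widely separated groups. Its relative Axl rose less (log2 fold change 0.66 ± 0.11, adjusted p = 0.000595), and Tyro3 fell (-0.87). Mfge8, which bridges phosphatidylserine to integrins, had 48932, 30185 and 53185 in PGRN knockout libraries and 17353, 14347 and 16846 in WT libraries, log2 fold change 1.41 ± 0.15, adjusted p = 1.08e-05. Gas6, the ligand of Mertk and Axl, fell, with 6498, 7102 and 6120 in PGRN knockout libraries, against 12425, 11979.6 and 9819 in WT libraries, log2 fold change -0.79 ± 0.13, adjusted p = 0.000588. Over 21 genes of this list, 9 rose (42.9%, against 11.1% of all genes tested) and 3 fell (14.3%, against 8.3%). Without PGRN knockout M2 replicate 1, PGRN knockout M2 replicate 3 or WT M2 replicate 1, 5 rose.

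Genes that define macrophages rose in 11 of 22 and none fell, but the lineage regulators did not pass. Mpeg1, the pore-forming protein perforin-2, had 22213, 20002 and 22265 in PGRN knockout libraries and 4481, 4433 and 5791 in WT libraries, log2 fold change 2.14 ± 0.14, adjusted p = 3.75e-08. Ptprc, the leukocyte protein CD45, had 4099, 3711 and 4186 in PGRN knockout libraries, against 1933, 2095 and 2393 in WT libraries, log2 fold change 0.90 ± 0.14, adjusted p = 0.000199. Both were separate between the groups, and so were Sirpa (0.68) and the inhibitory Fc receptor Fcgr2b (0.72). The M-CSF receptor Csf1r had 31736, 24268 and 29262 in PGRN knockout libraries and 19354, 22465 and 23659 in WT libraries (log2 fold change 0.38 ± 0.19, adjusted p = 0.19), the transcription factor Spi1 had 5635, 4697 and 5354 in PGRN knockout libraries, against 4943, 4482 and 5083 in WT libraries (log2 fold change 0.11 ± 0.09, adjusted p = 0.479), and F4/80, listed as Emr1, had 14895, 11605 and 14876 in PGRN knockout libraries and 9255, 11966 and 11685 in WT libraries (log2 fold change 0.33 ± 0.21, adjusted p = 0.325). None of these 3 passed. Lyz2, lysozyme, was higher in each knockout library, with 222011, 208626 and 239199 in PGRN knockout libraries, against 78619, 75048 and 98318 in WT libraries, and passed (log2 fold change 1.42 ± 0.45, adjusted p = 0.0428), but missed the threshold whichever library was left out (up to 0.116). Of 15 osteoclast and fusion genes, 4 rose, Atp6v0d2, Clcn7, the receptor RANK (Tnfrsf11a, log2 fold change 0.68 ± 0.16, adjusted p = 0.00709) and Itgb3 (0.81), and 2 fell, Ctsk and Oscar (adjusted p = 0.0286). These shares were 26.7% and 13.3%, against 11.1% and 8.3% of all genes tested. Neither fall remained without PGRN knockout M2 replicate 1 or without any 1 of the WT M2 libraries, and Itgb3 missed the threshold without PGRN knockout M2 replicate 1 or 3 or WT M2 replicate 1 or 2.

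The 12 largest rises among genes that passed, did not overlap and averaged at least 100 normalized counts were Hal, Serpina3h, Serpina3i, Ccdc148, Cd4, Serpina3f, Mcoln3, Tagap, Bex1, Mgll, Wdfy1 and Slco2b1. Hal, histidine ammonia-lyase, which turns histidine into urocanate, had 498, 1088 and 503 in PGRN knockout libraries and 3.99, 3.63 and 6.18 in WT libraries, log2 fold change 6.88 ± 0.74, adjusted p = 2.43e-05. In 14-3-3ε knockout M2 cells Hal was also higher than in the shared WT M2 libraries (6.25, adjusted p = 0.000209), and the direct test between the 2 knockouts did not pass (0.63, adjusted p = 0.681). Members of the Serpina3 cluster of protease inhibitors rose together, Serpina3h with 390.5, 508 and 464 in PGRN knockout libraries, against 13.3, 6.65 and 8.25 in WT libraries (5.49), Serpina3i with 245, 343 and 280.5 in PGRN knockout libraries and 2.66, 7.86 and 7.21 in WT libraries (5.48) and Serpina3f with 355, 459.6 and 353 in PGRN knockout libraries, against 41.2, 26.0 and 29.9 in WT libraries (3.56). These genes are near copies of each other, so the reads could be split between them by the counting. Cd4, a T cell co-receptor that some macrophages also carry, had 979, 930.1 and 788 in PGRN knockout libraries and 97.1, 46.0 and 38.1 in WT libraries, log2 fold change 3.99 ± 0.50, adjusted p = 7.03e-05, while Cd3e (-0.64) and Cd3g (0.18) did not pass.

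Mcoln3, a calcium channel of endosomes and lysosomes, had 249, 221 and 184 in PGRN knockout libraries, against 25.3, 22.4 and 26.8 in WT libraries, log2 fold change 3.08 ± 0.24, adjusted p = 4.45e-07. Slco2b1, an organic anion transporter, had 733, 805 and 733 in PGRN knockout libraries and 190.3, 140.3 and 83.5 in WT libraries, log2 fold change 2.52 ± 0.60, adjusted p = 0.00676, and missed the threshold with a pseudocount of 0.1. Wdfy1, an endosomal adaptor of Toll-like receptors, had 1354, 1516 and 1419 in PGRN knockout libraries, against 213, 262 and 259.7 in WT libraries, log2 fold change 2.54 ± 0.25, adjusted p = 6.78e-06. For each of these genes the lowest knockout library was more than 2-fold above the highest WT library. Tagap, a GTPase-activating protein (2.93), Bex1 (2.68) and Ccdc148 (4.17) complete the rises, and Bex1 missed the threshold with reads thinned to equal depth. Outside the lists, and chosen after their values were seen, the activating Fc receptor Fcgr4 had 1167, 1337 and 1174 in PGRN knockout libraries and 355, 275 and 296 in WT libraries (log2 fold change 1.99 ± 0.17, adjusted p = 1.23e-06), the adhesion receptor Slamf7 had 1376, 1343 and 1430 in PGRN knockout libraries, against 355, 359 and 434 in WT libraries (log2 fold change 1.86 ± 0.12, adjusted p = 3.75e-08), and Entpd1, the ectoenzyme CD39, had 2209.7, 2770 and 2353 in PGRN knockout libraries and 817, 618 and 668 in WT libraries (log2 fold change 1.80 ± 0.17, adjusted p = 2.47e-06).

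The 12 largest falls by the same rule were Grn, Pcdhgc4, Panx3, Pdpn, Plac9b, Insc, Slc13a5, Megf6, Chil4, Mfap5, Tnfrsf19 and Tcf7. Panx3, a channel protein of bone and cartilage cells, had 28.5, 97.5 and 29.1 in PGRN knockout libraries, against 443, 879.9 and 313 in WT libraries, log2 fold change -3.49 ± 0.73, adjusted p = 0.00349. Pdpn, podoplanin, a membrane mucin of stromal and some myeloid cells, had 42.1, 53.3 and 59.8 in PGRN knockout libraries and 514, 524 and 677 in WT libraries, log2 fold change -3.44 ± 0.25, adjusted p = 2.3e-07. Pdpn was also lower in 14-3-3ε knockout M2 cells than in the shared WT M2 libraries (-3.79, adjusted p = 1.34e-07). Mfap5, a protein of elastic microfibrils, had 29.2, 29.0 and 27.6 in PGRN knockout libraries, against 239, 207 and 149 in WT libraries, log2 fold change -2.73 ± 0.25, adjusted p = 1.8e-06. Slc13a5, a citrate transporter, had 37.3, 41.1 and 33.7 in PGRN knockout libraries and 190.3, 532 and 228 in WT libraries, log2 fold change -2.90 ± 0.49, adjusted p = 0.000663, and Tcf7, a factor of Wnt signalling, 21.1, 36.1 and 23.0 in PGRN knockout libraries, against 110.4, 289.7 and 125 in WT libraries, log2 fold change -2.57 ± 0.52, adjusted p = 0.00231. The log2 fold changes of Pcdhgc4, a protocadherin, Insc, Megf6 and Tnfrsf19 were -4.27, -2.92, -2.86 and -2.57, in that order. Plac9b (-3.39) has a near copy, Plac9a (-3.16), and the reads of the pair could be split between them. Plac9a missed the threshold whichever library was left out.

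Several genes of bone-forming and stromal cells were lower in the knockout libraries. Of 16 stromal markers, 7 fell and none rose: Acta2, smooth muscle actin, had 23410.5, 28761 and 26583 in PGRN knockout libraries and 62205, 53864 and 44236 in WT libraries, log2 fold change -1.02 ± 0.12, adjusted p = 1.73e-05, and Col1a1, the main chain of type I collagen, had 64769.9, 76456 and 72630.2 in PGRN knockout libraries, against 110149, 160925 and 113658 in WT libraries, log2 fold change -0.83 ± 0.20, adjusted p = 0.00773. The other 9 stromal markers did not pass, among them Col3a1 (-0.50), Dcn (-0.60), Pdgfrb (-0.14) and Col6a1 (0.03). Reads of 3 collagen genes made up 0.722% to 0.909% of the PGRN knockout M2 libraries and 1.13% to 1.79% of the WT M2 libraries. Of 15 osteoblast lineage genes, a list added after the values were seen, 11 fell and none rose, with a median log2 fold change of -1.96. Alpl, the phosphatase of mineralizing cells, had 2735, 5169 and 3002 in PGRN knockout libraries and 15677, 22447 and 16314 in WT libraries, log2 fold change -2.36 ± 0.27, adjusted p = 2.87e-05, and Ibsp, bone sialoprotein, had 2067, 4720.2 and 2809 in PGRN knockout libraries, against 11666, 19799 and 11893 in WT libraries, log2 fold change -2.22 ± 0.47, adjusted p = 0.0045. The osteoblast genes summed to 9213 to 16502 normalized counts in PGRN knockout M2 libraries and 37117 to 55238 in WT M2 libraries. Of the stromal markers 4 fell without PGRN knockout M2 replicate 1 or WT M2 replicate 2. The Gas6, Serping1, Mmp14 and Ctsk falls move in the same direction as these markers, and the part of such cells in them was not tested.

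Markers of other blood cells gave few calls. None of 12 B and plasma cell, 13 neutrophil, 10 dendritic cell or 10 mast cell and basophil markers passed, and the lowest members of the first 2 lists by log2 fold change were Igj (adjusted p = 0.0917) and S100a9 (adjusted p = 0.121). Without PGRN knockout M2 replicate 2, 5 of the B and plasma cell markers and 4 of the neutrophil markers fell. Neutrophil markers summed to 1056 to 4011 normalized counts in PGRN knockout M2 libraries and 2595 to 8160 in WT M2 libraries, with overlap. The sums of the B and plasma cell, mast cell and basophil, and erythroid and megakaryocyte markers overlapped too. T and NK cell markers did not overlap, with 2384 to 3182 in PGRN knockout M2 libraries and 742 to 1250 in WT M2 libraries. Dendritic cell markers did not either, with 129.0 to 182.4 and 103.1 to 127.7. Cd4, among the largest rises above, is not in the T and NK cell list. Of 16 T and NK cell markers 1 rose, Il7r (log2 fold change 1.68 ± 0.26, adjusted p = 0.000333), and of 11 erythroid and megakaryocyte markers 1 fell, Hbb-bs, which was near 0 throughout (0, 1.69 and 0 in PGRN knockout libraries and 7.98, 8.47 and 6.18 in WT libraries) and missed the threshold without PGRN knockout M2 replicate 1 or 3 or WT M2 replicate 1 or 2. These shares were 6.25% rises and 9.09% falls, against 11.1% and 8.3% of all genes tested. No tested member of these lists lacked reads in all 6 libraries, and 11 of the 13 listed erythroid and megakaryocyte markers were tested.

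Of 40 cell cycle genes, which serve DNA replication and mitosis, 19 fell and none rose, the log2 fold change was below 0 in 38, and the median was -0.51. Cdk1, the mitotic kinase, had 1188, 1063 and 1058 in PGRN knockout libraries, against 1933, 1794 and 2037 in WT libraries, log2 fold change -0.80 ± 0.16, adjusted p = 0.00248. Cdc20, an activator of the anaphase-promoting complex, had 543, 558 and 490.5 in PGRN knockout libraries and 1024, 909 and 1001 in WT libraries, log2 fold change -0.88 ± 0.17, adjusted p = 0.00188. Rrm1 (-0.54) and Tyms (-0.69), enzymes of nucleotide supply, fell too, while the replication helicase subunit Mcm2 (-0.15), Pcna (0.04) and Mki67 (-0.38) did not pass. Without WT M2 replicate 3, 13 fell, and under scaling by library totals 24 did. In M1 cells 2 of the 40 rose and 2 fell, where 14.2% of all genes tested rose and 11.1% fell. For none of the 40 did the difference between M2 and M1 pass.

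Stress and metabolic genes moved less uniformly. ER chaperone and ATF4 target genes fell in 11 of 20 and rose in 1, Atf3 (log2 fold change 0.64 ± 0.14, adjusted p = 0.0035). Herpud1, a protein of ER-associated degradation, had 775, 873 and 756 in PGRN knockout libraries, against 1429, 1346 and 1145 in WT libraries, log2 fold change -0.70 ± 0.10, adjusted p = 0.000109. Slc7a5, a transporter of large amino acids that ATF4 induces, had 929.6, 952 and 1077 in PGRN knockout libraries and 1448, 1812 and 1517 in WT libraries, log2 fold change -0.69 ± 0.12, adjusted p = 0.000517, and the chaperones Hspa5 (-0.31) and Hsp90b1 (-0.34) fell slightly. Atf4 itself did not pass (-0.20). In M1 cells 5 of the 20 rose and 6 fell, where 14.2% of all genes tested rose and 11.1% fell. The list's median log2 fold change was -0.33 in M2 and 0.16 in M1. For 5 of the 20 the interaction contrast gave a lower effect in M2 (0.469% of all genes tested did). Of 28 glycolysis and HIF1 genes, 7 fell (25%, against 8.3% of all genes tested) and 5 rose (17.9%, against 11.1%). Bnip3, a mitophagy receptor (-0.92), Pfkl (-0.67) and Vegfa (-0.73) fell, and Aldoc (1.73), Hk3 (0.97) and Hk2 (0.71) rose. With PGRN knockout M2 replicate 1, 2 or 3 or WT M2 replicate 1 left out in turn, 4 of these fell.

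Of 30 respiratory chain genes, 1 fell, Atp5o (log2 fold change -0.45 ± 0.12, adjusted p = 0.0126), none rose, and 26 had a log2 fold change below 0, with a median of -0.19. Atp5o missed the threshold without WT M2 replicate 1 (adjusted p = 0.0741), and without WT M2 replicate 2 the count was 4. Of 18 NRF2 and oxidative stress genes, 6 rose (33.3%, against 11.1% of all genes tested) and 2 fell (11.1%, against 8.3%). Fth1, the ferritin heavy chain, had 151656, 133478 and 152768 in PGRN knockout libraries, against 90125, 72465 and 99800.3 in WT libraries, log2 fold change 0.75 ± 0.12, adjusted p = 0.000332. The peroxide-degrading enzyme Cat (0.75) and the cystine importer Slc7a11 (1.04) rose as well, and Me1, malic enzyme, fell (log2 fold change -0.85 ± 0.09, adjusted p = 4.94e-06). Hmox1 (0.32) and Gclm (-0.94, adjusted p = 0.38) did not pass, and Nqo1, the other fall (-0.75, adjusted p = 0.0397), did not remain in any fit that left out 1 of the 6 libraries.

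**Figure D4:**
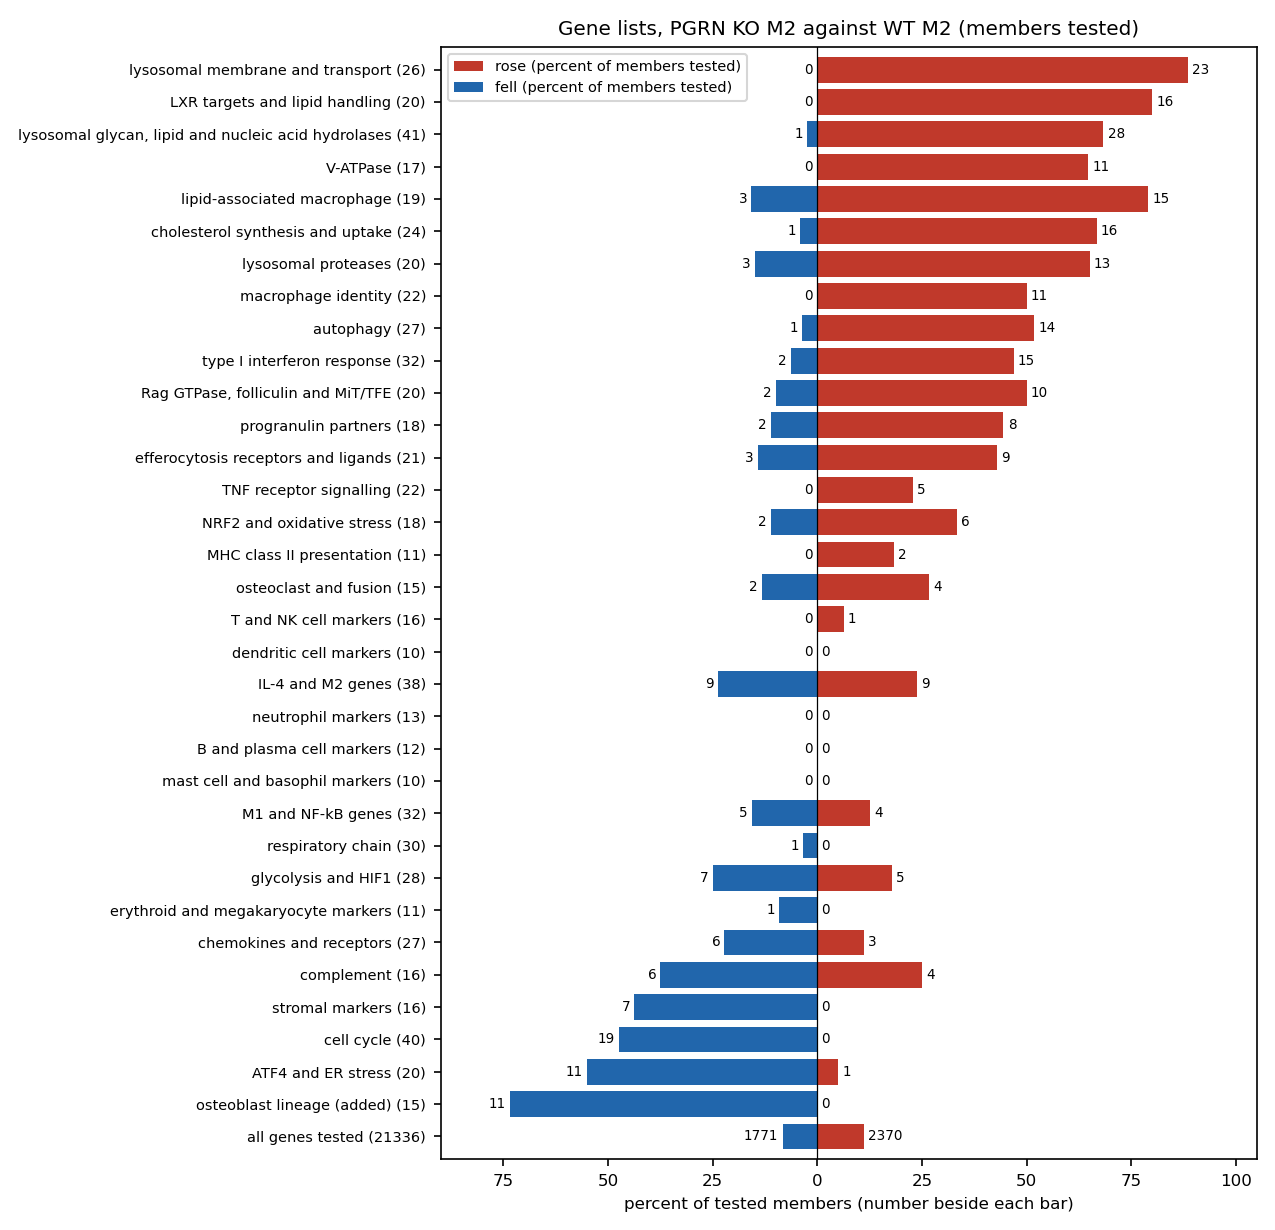
Percent of tested members that rose (red, right) and fell (blue, left) in PGRN knockout M2 against WT M2 for each gene list, with counts beside the bars and the number of tested members after each name. The lysosomal membrane list has 23 rises of 26 and the osteoblast list, added after the values were seen, 11 falls of 15, beside 2370 rises and 1771 falls among all 21336 genes.

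The effect of progranulin loss in M2 cells was set beside that in M1 cells, which shares no libraries with it. In M1, 5399 of 21336 genes (25.3%) passed, 3039 (14.2% of all genes tested) higher and 2360 (11.1%) lower in the knockout. Of the 2370 genes that were higher in PGRN knockout M2 cells, 1574 (66.4%) were also higher in PGRN knockout M1 cells, which is 51.8% of the 3039 higher there, and 22 were lower. Of the 1771 lower in M2, 1001 (56.5%) were also lower in M1, 42.4% of the 2360 lower there, and 13 were higher. Under library totals M1 had 1814 higher (8.5% of all genes tested) and 2791 lower genes (13.1%). The share of calls that were higher was then 39.4%, against 56.3% in the deposited scaling. With library totals 963 genes were higher in both states (55.5% of those in M2, 53.1% of those in M1) and 1153 lower in both (59.4% and 41.3%). For 267 genes (1.25%) the effect itself differed between M2 and M1 by the interaction contrast, 167 (0.783%) with a higher and 100 (0.469%) with a lower value in M2. The count depended on the settings: it was 93 with only these 4 groups in the fit, 96 with reads thinned to equal depth, and 100 to 659 when a library was left out, lowest without PGRN knockout M2 replicate 3 and highest without WT M1 replicate 1. The 104 lysosomal genes gave 75 rises (72.1%) and 4 falls (3.85%) in each state, against 14.2% and 11.1% of all genes tested in M1. The difference between the states passed for 2 of them, both lower in M2.

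Gpr65, a receptor that senses extracellular acid, had the smallest p among the genes named for such a difference. Its normalized counts were 247, 246 and 299 in PGRN knockout libraries and 1158, 1173 and 1210 in WT libraries (log2 fold change -2.16 ± 0.12, adjusted p = 1.21e-08). In M1 they were 1907, 1559 and 2124 in PGRN knockout libraries and 1480.5, 1564 and 1536 in WT libraries (0.28, adjusted p = 0.111), and the effects differed by -2.44 (adjusted p = 2.71e-06). Cfb, complement factor B, fell in M2 (-1.75) with 0.81 in M1, a difference of -2.56 (adjusted p = 0.014). Chil4 had no read in the 6 PGRN knockout and WT M1 libraries, so its change was measured in M2 alone. Lipn, a lipase, did not pass in M2 (-0.40, with overlapping groups) and rose in M1 (1.86, adjusted p = 0.000839), a difference of -2.27 (adjusted p = 0.0296). The Lipn difference missed the threshold without PGRN knockout M2 replicate 1, 2 or 3, PGRN knockout M1 replicate 2 or 3, WT M2 replicate 2 or 3, or WT M1 replicate 3.

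In the other direction, Tagap rose in M2, with 268, 277 and 313 in PGRN knockout libraries, against 25.3, 30.2 and 63.9 in WT libraries (log2 fold change 2.93 ± 0.25, adjusted p = 1.25e-06), and did not pass in M1 (0.60), a difference of 2.32 (adjusted p = 0.00484). Gpd1, glycerol-3-phosphate dehydrogenase, had 524, 519 and 343 in PGRN knockout libraries and 97.1, 85.9 and 74.2 in WT libraries (log2 fold change 2.40 ± 0.29, adjusted p = 2.58e-05), with 0.09 in M1 and a difference of 2.31 (adjusted p = 0.0115). Dcstamp, which is needed for fusion of macrophages, did not pass in M2 (0.62) and fell in M1 (-2.50), a difference of 3.13 (adjusted p = 0.0246). Pcsk5, a proprotein convertase, did not pass in M2 (0.89) and fell in M1 (-1.41), a difference of 2.30 (adjusted p = 0.0311). The Dcstamp difference missed the threshold without PGRN knockout M2 replicate 1 or 3, PGRN knockout M1 replicate 1 or 2, or WT M2 replicate 2, and the Pcsk5 difference without PGRN knockout M2 replicate 1, 2 or 3, PGRN knockout M1 replicate 2 or 3, WT M2 replicate 3, or WT M1 replicate 2. Ms4a7, Abcg1 and Fcgr4 also differed, by 1.08, -0.61 and 1.86: the log2 fold changes of Ms4a7 and Fcgr4 were higher in M2, and that of Abcg1 was higher in M1.

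**Figure D5:**
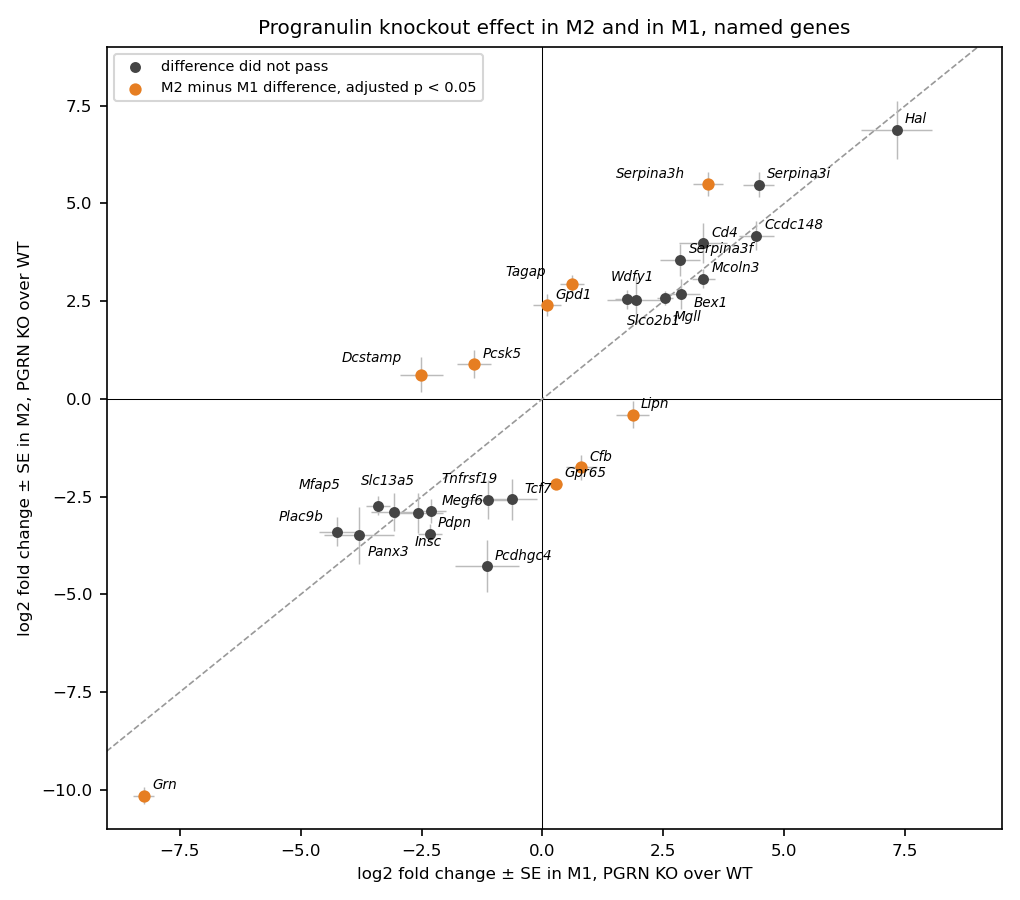
Log2 fold change with standard error of PGRN knockout over WT in M2 (vertical) against M1 (horizontal) for the genes named as the largest rises, falls and differences, with the line of equal effects dashed. Orange points passed the test of the difference, grey points did not, and Chil4 is left out because the M1 libraries hold no read of it.

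The 14-3-3ε knockout M2 libraries kept part of their Ywhae RNA, with 5088, 4362 and 5131 normalized counts, against 9015, 8203 and 8999 in WT M2 libraries. The log2 fold change was -0.85 ± 0.08, adjusted p = 7.76e-06. That is a smaller fall than that of Grn RNA, and RNA alone does not tell how much protein was left. Against the same WT M2 libraries, 14-3-3ε knockout M2 cells had 1427 changed genes (6.69%). PGRN knockout M2 cells differed directly from 14-3-3ε knockout M2 cells in 3884 genes (18.2%), 2116 of them higher (9.92%) and 1768 lower (8.29%). Scaling by library totals moved the median log2 fold change of all genes by 0.11 in the 14-3-3ε comparison and by -0.15 in the direct one, where it gave 1196 higher and 2829 lower genes, so that the higher share of the calls was 29.7% under library totals and 54.5% in the deposited scaling. Psap was 1.32 higher on the log2 scale in PGRN knockout than in 14-3-3ε knockout M2 cells (adjusted p = 1.12e-07), with 177778, 160084 and 146248 normalized counts in the 14-3-3ε knockout libraries. Gpnmb (2.15, adjusted p = 9.73e-07), Ctsd (1.63, adjusted p = 1.57e-07) and Atp6v0d2 (1.87, adjusted p = 1.62e-08) were likewise higher in PGRN knockout than in 14-3-3ε knockout M2 cells. Arg1 (-0.25, adjusted p = 0.789) and Ccl2 (-0.36, adjusted p = 0.149) did not pass in the direct test of the 2 knockouts (Ccl2 did under library totals, -0.53, adjusted p = 0.0146), while Retnla was lower in PGRN knockout M2 cells (-2.02, adjusted p = 0.0211). Wdfy1 and Tagap, which were higher in both knockouts than in the shared WT M2 libraries (14-3-3ε knockout 1.21 and 1.82), were higher again in PGRN knockout than in 14-3-3ε knockout M2 cells, by 1.34 and 1.11.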

How the data were processed

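Total RNA was sequenced from bone marrow derived macrophages. Per the submitters' processing notes, STAR, RSEM 1.3.1 and DESeq2 were used. The notes name the build GRCh38, although the gene IDs are of mouse. The deposited values are log2 of the count divided by a size factor, plus 1, for 43309 genes in 18 libraries. Undoing these steps gave whole reads for 100.0% of values within 0.1 read, and these reads gave the depth of each library.

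A gene was tested if 3 or more libraries reached a normalized count of 1, with limma 3.58.1 (R 4.3.3, trended and robust variance) in one fit of the 6 groups, without a replicate term, on the log2 values. P-values were adjusted by Benjamini-Hochberg over all 21336 genes tested, with a threshold of 0.05. The fit was also run on simulated counts, with the same spread for every gene and no library that stood apart. Such a run checks the code and does not measure how many calls in these data are false.

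The text names the targeted gene, the 12 largest rises and the 12 largest falls. It also names up to 4 members per gene list and 4 interaction genes each way. All passed the threshold of the test they were named for. The rises and falls also had no overlap in M2 and a mean of at least 100 normalized counts. The interaction genes had such a mean over the PGRN knockout and WT libraries, and no overlap in M2 or in M1. List members were taken by smallest p, without a filter on count or overlap. A few list members are counted but not reported here by name. Further members were named for their known roles or after their values were seen. The comparison and all 33 lists were chosen with earlier results of these data known, and the osteoblast list was added after the values were seen. The alternatives were library totals as scaling, other pseudocounts and filters, a fit of only the groups compared, a replicate block, voom weights on the recovered reads, reads thinned to equal depth, and leaving out each library. Promoters come from RefSeq, GRCm38.p6.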

Additional observations from a re-analysis of the deposited data

Results flagged for a closer look

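The following genes are named because the effect of progranulin loss differed between M2 and M1 cells by the interaction contrast (limma, adjusted over all genes tested). Each value is the log2 fold change of PGRN knockout over WT in M2 minus that in M1, with its standard error and 3 libraries in each of the 4 groups.

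Grn, the targeted gene, differed by -1.90 ± 0.31 (adjusted p = 0.00974), with log2 fold changes of -10.14 in M2 and -8.24 in M1. Serpina3h differed by 2.07 ± 0.44 (adjusted p = 0.0296), with 5.49 in M2 and 3.42 in M1, and has near copies among which reads could be split. Gpr65 differed by -2.44 ± 0.17 (adjusted p = 2.71e-06). Tagap differed by 2.32 ± 0.35 (adjusted p = 0.00484). Gpr65 and Tagap passed the test of the difference under every alternative, and Grn and Serpina3h were not run through the alternatives for this test.

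Chil4 differed by -2.76 ± 0.43 (adjusted p = 0.00491), and since the M1 libraries of both genotypes hold no read of it, that value is its M2 change alone. With a pseudocount of 0.1 its adjusted p was 0.145, and with voom weights 0.688. Cfb differed by -2.56 ± 0.44 (adjusted p = 0.014), and by the same amount at an adjusted p of 0.0713 with just these 4 groups in the fit. Gpd1 differed by 2.31 ± 0.41 (adjusted p = 0.0115), and with reads thinned to equal depth its adjusted p was 0.0747. Dcstamp differed by 3.13 ± 0.63 (adjusted p = 0.0246), Pcsk5 by 2.30 ± 0.50 (adjusted p = 0.0311) and Lipn by -2.27 ± 0.48 (adjusted p = 0.0296). With voom weights the adjusted p was 0.079 for Dcstamp, 0.117 for Pcsk5 and 0.31 for Lipn.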

How the results depend on the processing

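The count of genes that differed between PGRN knockout M2 and WT M2 cells was 4141 and lay between 3116 and 5291 under the alternatives that keep all libraries, with 3116 at equal depth and 5291 with voom weights. Leaving out each library in turn gave 2752 to 3725, the lowest without PGRN knockout M2 replicate 3. The count over 2-fold was 903, and 505 among genes with a mean of at least 100. The interaction count was 267, with 93 when only the groups compared were fitted, 96 at equal depth, and 100 to 659 when each library was left out, for which the cause was not tested. It was 100 without PGRN knockout M2 replicate 3, 131 without its replicate 1, 147 without its replicate 2, 131 without PGRN knockout M1 replicate 1, 135 without its replicate 3, 157 without WT M2 replicate 2 and 659 without WT M1 replicate 1. No called gene among the 134 named changed sign under an alternative, and 125 to 134 of them passed again (of 127 where the mean of at least 100 left that many). The log2 fold changes of Mrc1, Il4ra and Tnf, which did not pass, changed sign. Leaving out a library gave -0.084 to 0.22 for Mrc1, negative without WT M2 replicate 1, and -0.084 to 0.099 for Il4ra, negative without PGRN knockout M2 replicate 1 or 3 or WT M2 replicate 1. For Tnf it gave -0.13 to 0.23, negative without PGRN knockout M2 replicate 2 or WT M2 replicate 1. With library totals Il4ra was at -0.042.

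A replicate block gave 4356 genes for the M2 comparison and 282 for the interaction. Deviations of same-numbered M2 libraries correlated at -0.334, 0.001 and -0.174 across genes, and those of differently numbered ones at -0.096 to 0.291. With 3 libraries per group, such values cannot tell if same-numbered libraries share a source. The replicate block ended the calls of Arg1 and Plac9a. Equal depth ended those of Bex1, Ccl24, Retnla, Arg1, Plac9a and Lyz2, library totals those of Lyz2 and Ciita, a pseudocount of 0.1 those of Slco2b1, Plac9a and Ciita, a pseudocount of 5 that of Hbb-bs, no filter that of Ciita, and a fit of only the groups compared that of C1qb. The calls of Arg1, Retnla, Lyz2 and Ciita, which leaving out a library could end, remained in the fit of only the groups compared. The depths of the M2 libraries differ up to 4.31-fold, and the thinned fit at the depth of the shallowest of the 18 libraries tested 19868 genes.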
